A study of Homo sapiens with 6 samples.

Results

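Cadherins, vimentin, fibronectin, EPCAM and the ZEB and SNAI transcription factors were followed in A549 cells in which HNRNPD had been lowered with siRNA. The 9 genes, CDH1, CDH2, EPCAM, VIM, FN1, ZEB1, ZEB2, SNAI1 and SNAI2, were taken by name from the 56303 genes of a count table, and all 9 were found. A549 is an established human lung adenocarcinoma line. The 6 libraries are 3 of cells given HNRNPD siRNA and 3 of cells given a negative-control siRNA; every library comes from this line, and the labels name no other agent. HNRNPD encodes AUF1, a protein that binds AU-rich stretches in the 3' untranslated regions (3' UTRs) of mRNAs. The labels give neither the siRNA sequences, the time after transfection nor whether the libraries came from separate cultures, so every p-value here rests on the spread among the 6 libraries and part or all of that spread may be technical.

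Epithelial cells hold on to each other through E-cadherin, made from CDH1, whose cytoplasmic tail is tied to actin by catenins. In the epithelial-mesenchymal transition (EMT) cells lose E-cadherin and gain N-cadherin, the CDH2 product, together with vimentin and fibronectin. The zinc finger proteins of the ZEB and SNAI families repress CDH1 through E-boxes, and ZEB1 and ZEB2 are themselves held down by the microRNAs of the miR-200 family. Many carcinoma lines carry genes of both states at once.

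The libraries held 37151094, 40462117 and 39941137 counts with HNRNPD siRNA, and 42697412, 42607632 and 43005090 with control siRNA. Levels are given as CPM (counts-per-million units after TMM scaling). HNRNPD itself had 177, 163 and 167 CPM in the HNRNPD siRNA libraries, against 965, 943 and 942 CPM in the control libraries. The labels and the lowered gene therefore match in all 6 libraries. On the second principal component, with 5.3% of the variance, HNRNPD siRNA replicate 3 stood apart at -22.4 from replicates 1 and 2 at 15.57 and 8.884. Keratins of simple epithelium were abundant, with KRT8 at 2055 and 3327 CPM in the HNRNPD siRNA and control groups. Alveolar genes were far lower. In the same groups NAPSA averaged 1.27 and 0.753 CPM, and SFTPB averaged 0.189 and 0.086 CPM. SFTPC and NKX2-1 were at or under 0.11 CPM on average in both groups. That is close to the level that 3 counts give (0.0698 to 0.0808 CPM). Such limits cover counting error only.

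All 9 genes passed the filter on low counts. At an adjusted p under 0.05 in edgeR's quasi-likelihood test, ZEB2 and EPCAM were higher and VIM, CDH2 and FN1 were lower after HNRNPD siRNA. CDH1, ZEB1, SNAI1 and SNAI2 were not called. The 5 called of 9 stand beside 56.1% called among all 20465 tested genes, with 28.4% higher and 27.8% lower, so the share of the 9 is near that of the table. The 3 libraries of one group all lay above or below those of the other for the same 5 genes, against 62.6% of tested genes. The median log2 fold change of the 9 was -0.15, against 0.01 for all tested genes. ZEB2 was the 1 gene of the 9 that changed at least 2-fold.

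**Figure D1:**
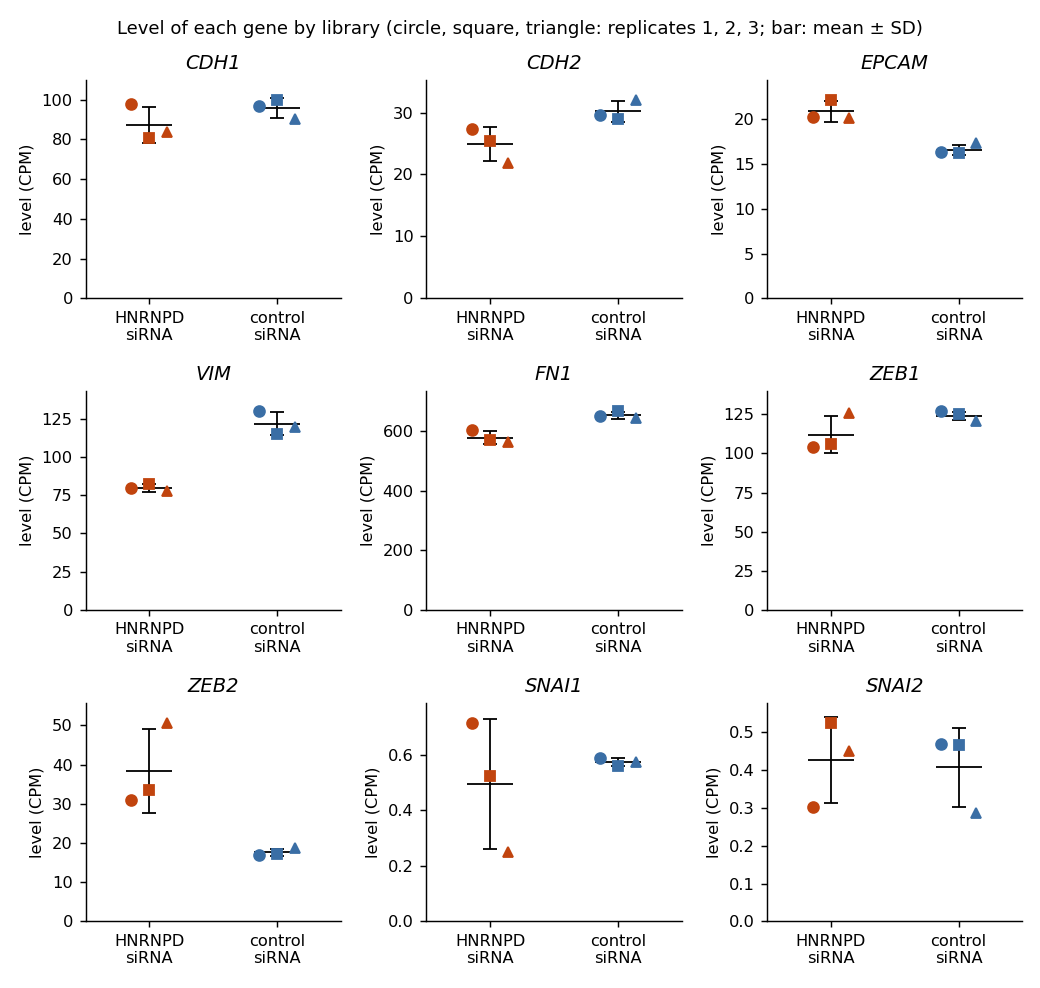
Level of each of the 9 genes in CPM (vertical axes from 0, a scale for each panel) in the 3 HNRNPD siRNA libraries (left, orange) and the 3 control siRNA libraries (right, blue), with the mean ± SD as bars. ZEB2 and EPCAM lie higher and VIM, CDH2 and FN1 lower in every HNRNPD siRNA library than in any control library, while the groups overlap for CDH1, ZEB1, SNAI1 and SNAI2.

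Among the adhesion genes, CDH1 had 97.73, 80.77 and 83.68 CPM in HNRNPD siRNA replicates 1 to 3, against 97.01, 100.02 and 90.28 CPM in the control replicates. HNRNPD siRNA replicate 1 lay within the control range and the other two below it. The log2 fold change was -0.13 (SE 0.07, 95% interval -0.28 to 0.02, edgeR adjusted p = 0.125), so a fall of CDH1 by more than 0.28 on the log2 scale lies outside that interval. Without HNRNPD siRNA replicate 1 the log2 fold change was -0.23 and passed the test (edgeR adjusted p = 0.00858). CDH1 lies on chromosome 16 from 68737225 to 68835548 (GRCh38, plus strand) and shares 5.62% of its exonic bases with another gene.

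N-cadherin, which marks mesenchymal and neural cells, was lower. CDH2 had 27.3, 25.4 and 21.9 CPM in the HNRNPD siRNA libraries, against 29.6, 28.9 and 32.1 CPM in the control libraries. The groups did not overlap, and the closest pair was HNRNPD siRNA replicate 1 and control replicate 2. The log2 fold change was -0.28 (SE 0.08, edgeR adjusted p = 0.00722), a 1.21-fold fall. CDH2 lies on chromosome 18 from 27950966 to 28177446 (minus strand).

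EPCAM, an epithelial surface glycoprotein that is cut to release a signalling fragment, was higher. It had 20.3, 22.2 and 20.1 CPM in the HNRNPD siRNA libraries, against 16.4, 16.2 and 17.3 CPM in the control libraries. The rise was 1.25-fold (log2 fold change 0.33, SE 0.08, edgeR adjusted p = 0.00158). EPCAM lies on chromosome 2 from 47345158 to 47387601 (plus strand), and its exons overlap no other gene in the table.

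The cadherin balance can be read within each library from levels per length (TPM, the count over the length of the gene, scaled to 1 sum in every library). The ratio of CDH2 to CDH1 was 0.348, 0.392 and 0.327 in the HNRNPD siRNA libraries, against 0.381, 0.36 and 0.444 in the control libraries. The groups overlapped, and the mean log2 ratio was 0.15 lower with HNRNPD siRNA. The ratio was below 1 in all 6 libraries, so CDH1 mRNA was the more abundant per length in each. The ratio of VIM to CDH1 was 0.976, 1.22 and 1.11 with HNRNPD siRNA, against 1.61, 1.38 and 1.59 with control siRNA. These groups stood apart. That of FN1 to CDH1 averaged 2.37 ± 0.163 with HNRNPD siRNA and 2.44 ± 0.0935 with control siRNA (SD, n = 3 each), with overlapping groups. Ratios between genes were given no test.

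**Figure D2:**
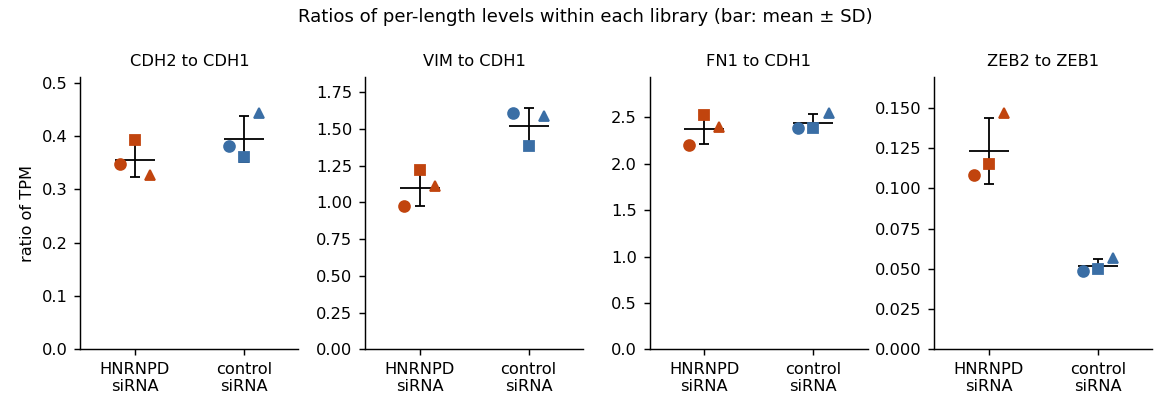
Ratio of per-length levels (TPM) of CDH2 to CDH1, VIM to CDH1, FN1 to CDH1 and ZEB2 to ZEB1 in each of the HNRNPD siRNA libraries (left, orange) and control siRNA libraries (right, blue), with the mean ± SD as bars and vertical axes from 0. The ratio of VIM to CDH1 is lower and that of ZEB2 to ZEB1 higher in all 3 HNRNPD siRNA libraries, and the other ratios overlap.

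Vimentin, the intermediate filament protein of mesenchymal cells, fell the most of the 9. VIM had 79.6, 82.3 and 77.5 CPM in the HNRNPD siRNA libraries, against 130.1, 115 and 119.6 CPM in the control libraries. The groups were far apart compared with their spread, at 79.8 ± 2.4 and 122 ± 7.64 CPM (SD, n = 3 each). The 1.52-fold fall (log2 fold change -0.61, SE 0.06, edgeR adjusted p = 1.3e-07) lay at the 14.9th percentile of all log2 fold changes, so it stood outside the middle part of the table but not at its edge.

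VIM lies on chromosome 10 from 17228259 to 17237593 (plus strand). It shares 24.4% of its exonic bases, 1260 bases, with genes on the opposite strand. Among these VIM-AS1 has the largest overlap, at 641 bases. VIM-AS1, an antisense RNA that starts inside VIM, had 16.8, 17.4 and 17.1 CPM in the HNRNPD siRNA libraries and 27.2, 25.5 and 25.3 CPM in the control libraries. Its log2 fold change was -0.60 (SE 0.07, edgeR adjusted p = 1.36e-06), next to -0.61 for VIM. No source used here gives the strand setting of the counting, so how reads over the shared bases were assigned is unknown. The shared bases are 32.2% of the exonic bases of VIM-AS1. The changes of VIM and VIM-AS1 are therefore not taken as separate measurements.

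Fibronectin, the matrix glycoprotein that integrins assemble into fibrils, was the most abundant of the 9 per length. FN1 had 603, 571 and 563 CPM in the HNRNPD siRNA libraries, against 650.2, 668 and 645 CPM in the control libraries. The groups did not overlap, and the fall was 1.13-fold (log2 fold change -0.18, SE 0.06, edgeR adjusted p = 0.0135). The call was lost without control replicate 2 (log2 fold change -0.17, edgeR adjusted p = 0.0572). FN1 lies on chromosome 2 from 215360440 to 215436172 (minus strand), with no overlapping gene.

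**Figure D3:**
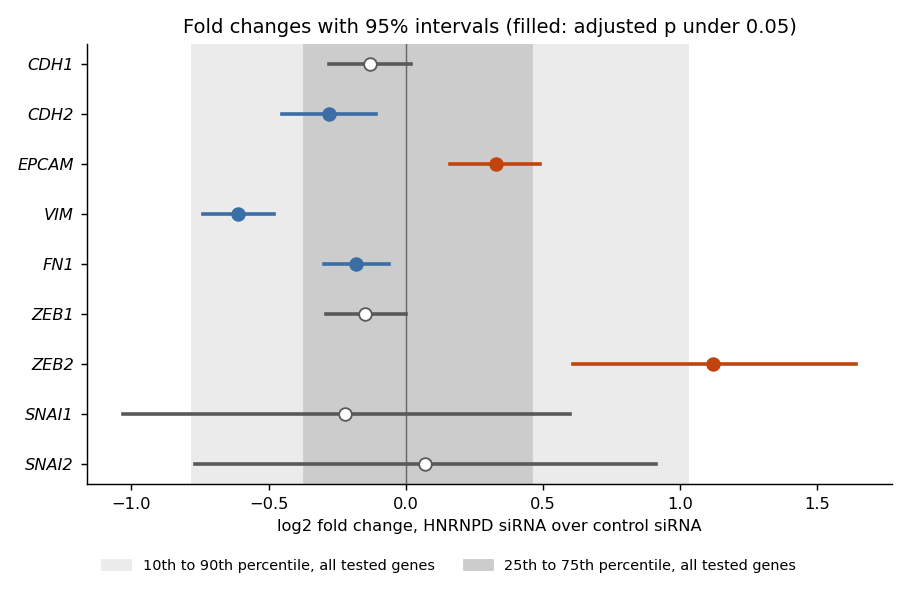
Log2 fold change of each gene, HNRNPD siRNA over control siRNA (horizontal axis), with its 95% interval from the edgeR fit; filled points passed an adjusted p of 0.05 (orange higher, blue lower), open points did not, and grey bands give the middle of all 20465 tested genes. ZEB2 lies beyond the 90th percentile at 1.12, VIM at -0.61 lies between the 10th and 25th, and the other 7 points lie within the inner band.

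ZEB2, a zinc finger repressor of CDH1, had the largest change of the 9. It had 31, 33.5 and 50.7 CPM in the HNRNPD siRNA libraries, against 16.9, 17.2 and 18.8 CPM in the control libraries. HNRNPD siRNA replicate 3 was the highest by 1.63-fold over replicate 1, and the lowest HNRNPD siRNA library still exceeded the highest control library. The rise was 2.18-fold (log2 fold change 1.12, SE 0.21, edgeR adjusted p = 0.00525), at the 91.3rd percentile of all tested genes. Without HNRNPD siRNA replicate 3 the log2 fold change was 0.87 (edgeR adjusted p = 5.98e-12). ZEB2 lies on chromosome 2 from 144384081 to 144524583 (minus strand) and shares 5.27% of its exonic bases with genes on the opposite strand, among them ZEB2-AS1. That antisense gene had 5, 25 and 25 counts in the HNRNPD siRNA libraries and 6, 3 and 2 in the control libraries, too few to pass the filter.

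ZEB1, its close relative, was not called. It had 104, 106 and 126 CPM in the HNRNPD siRNA libraries, against 127, 125 and 121 CPM in the control libraries. HNRNPD siRNA replicates 1 and 2 lay below every control library and replicate 3 lay among them. The log2 fold change was -0.15 (SE 0.07, edgeR adjusted p = 0.0758). Without HNRNPD siRNA replicate 3 it was -0.25 and passed the test (edgeR adjusted p = 0.000191), and with no filter on low counts it was -0.17 and also passed (edgeR adjusted p = 0.0288). ZEB1 lies on chromosome 10 from 31318495 to 31529814 (plus strand) and shares 4.23% of its exonic bases with ZEB1-AS1.

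The ratio of ZEB2 to ZEB1 per length was 0.108, 0.115 and 0.147 in the HNRNPD siRNA libraries and 0.0487, 0.0501 and 0.0565 in the control libraries. Every HNRNPD siRNA library lay above every control library. The length in the table is that of all annotated exons of a gene together, which for ZEB2 is 23707 bases, 2.47 times its longest protein-coding transcript. With the longest transcript as the length, chosen as an alternative after the data were seen, the mean ratio was 0.221 with HNRNPD siRNA and 0.0928 with control siRNA, so ZEB1 remained the more abundant on both scales.

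The 3' UTRs of these mRNAs were searched for the letters that AUF1 and miR-200 are known for, since ZEB2 rose when AUF1 mRNA was low while ZEB1 was not called. The longest 3' UTR of each gene in GENCODE 29 was read, which may not be the one that A549 cells use. The AU-rich heptamer TATTTAT occurred 7 times in the 5370 bases of ZEB2, 3 times in the 2549 bases of ZEB1, 2 times in FN1, once in EPCAM and once in SNAI1. The heptamer was not found in CDH1, CDH2, VIM or SNAI2. The shorter AU-rich pentamer ATTTA, which the heptamer contains, occurred in all 9 genes. It was found 24 times in ZEB2, 9 in ZEB1, 4 in FN1 and 3 each in CDH1 and SNAI1. EPCAM and SNAI2 held 2 each, and CDH2 and VIM 1 each. Among 3' UTRs of 0.8 to 1.25 times the same length, the gene itself included, 71.0% held at least 1 heptamer for the length of ZEB2. At least as many as in ZEB2 were held by 1.28%. For the length of ZEB1, 49.8% held at least 1 and 7.71% held at least as many as ZEB1. At least 1 pentamer was held by 99.1% for the length of ZEB2, 79.1% for that of CDH2 and 35.4% for that of VIM. The sites below show the heptamer in capitals, in the sense of the mRNA, for called genes of both directions and for ZEB1.
ZEB2, chr2:144388461-144388489, minus strand: aaataacatttTATTTATgtggctcattt
ZEB2, chr2:144388428-144388456, minus strand: tttcctaatttTATTTATttcatactgta
EPCAM, chr2:47386856-47386884, plus strand: atcgttaaaatTATTTATgtgtaacattc
FN1, chr2:215361024-215361052, minus strand: ctcttacctgtTATTTATcaatttttccc
ZEB1, chr10:31528621-31528649, plus strand: gaaaacttttaTATTTATgtgtcttattt

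The called genes with this heptamer thus include higher ones (ZEB2, EPCAM) and a lower one (FN1). Among the tested genes that have a searched 3' UTR, the 1996 with 2 or more heptamers had a median log2 fold change of -0.05, with 29.3% called higher and 34.8% called lower. The 8721 with none had a median of -0.03, with 29.1% higher and 33.1% lower. Their 3' UTRs differ in length, with medians of 3546 and 890 bases. Of the 7626 genes with 2 or more pentamers, 29.5% were called higher and 34.8% lower. Of the 3656 with no pentamer, 29.8% were higher and 31.9% lower. Median 3' UTR lengths were 2295 and 440 bases. A match is a run of letters and not a measured binding site.

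The miR-200 family is known to repress ZEB1 and ZEB2, and its mature sequences are given from RefSeq (GRCh38.p14), 5′ to 3′, with the seed, bases 2 to 8, in capitals. Within the family 3 microRNAs share one seed and 2 share another that differs at a single base.
miR-200b-3p: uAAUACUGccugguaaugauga
miR-200c-3p: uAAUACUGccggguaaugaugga
miR-429: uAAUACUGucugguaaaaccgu
miR-200a-3p: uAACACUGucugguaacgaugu
miR-141-3p: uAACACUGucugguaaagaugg

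The match to the first seed, CAGTATT, occurred 6 times in the 3' UTR of ZEB1, 5 times in that of ZEB2, 2 times in that of FN1 and once in that of SNAI2. The match to the second, CAGTGTT, occurred 3 times in ZEB1 and 4 times in ZEB2. Neither was found in CDH1, CDH2, EPCAM, VIM or SNAI1. Of the 2555 UTRs of like length to that of ZEB1, ZEB1 included, 26.7% held the first match at least once. Only ZEB1 itself, 0.0391% of them, held it at least as often as ZEB1 does. For the length of ZEB2, with ZEB2 itself counted, these shares were 46.7% and 0.171%. For the second match they were 29.8% and 0.626% for the length of ZEB1, and 52.2% and 1.28% for that of ZEB2. Among tested genes, the 589 with 2 or more first matches had 28.2% called higher and 36.2% lower. The 10930 with none had 29.8% and 32.9%. For the second match, these were 29.3% and 34.9% of 682 genes, and 29.5% and 33.1% of 10592. One site of each gene for each seed is shown, with the match in capitals. Levels of the mature microRNAs are not analysed here.
ZEB1, chr10:31527622-31527650, plus strand: ttttatcttatCAGTATTatcactcttat
ZEB2, chr2:144388979-144389007, minus strand: ctacaatgcatCAGTATTatgattcctct
ZEB1, chr10:31528035-31528063, plus strand: atcatcagaatCAGTGTTtgtgattgtgt
ZEB2, chr2:144388700-144388728, minus strand: ccatccttgtaCAGTGTTaagagggtaac

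**Figure D4:**
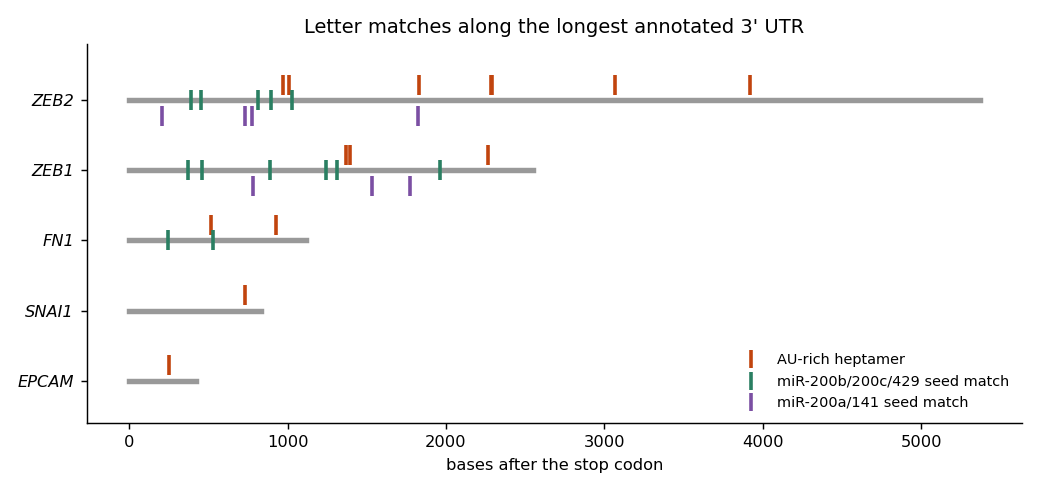
Positions of letter matches along the longest annotated 3' UTR (grey line) of ZEB2, ZEB1, FN1, SNAI1 and EPCAM, in bases after the stop codon; ticks mark the AU-rich heptamer (orange), the match to the seed of miR-200b, miR-200c and miR-429 (green) and the match to the seed of miR-200a and miR-141 (purple). ZEB2 has 7 heptamers and ZEB1 has 3, and both carry both kinds of seed match, while EPCAM and SNAI1 carry 1 heptamer and no seed match.

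E-boxes of the letters CACCTG, which ZEB and SNAI proteins bind, were counted on both strands of RefSeq promoter windows of 250 bases before to 50 after each gene start. Windows were at hand for 5 of the 9 genes. CDH1, EPCAM, SNAI1 and SNAI2 had none, so the promoter of CDH1 was not searched. Of 12 windows, 2 held an E-box, and both belong to ZEB1, with 1 and 3 matches. Most of the 12 windows are those of ZEB1, so a match had more places to occur there than in any other gene. None was found in the windows of ZEB2, FN1, VIM or CDH2. Among all 35116 windows 20.6% held at least 1.

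SNAI1 and SNAI2, the Snail and Slug repressors, had low counts. SNAI1 had 26, 22 and 10 counts in the HNRNPD siRNA libraries and 25, 24 and 24 in the control libraries. Its lowest value was in HNRNPD siRNA replicate 3. SNAI2 had 11, 22 and 18 counts with HNRNPD siRNA and 20, 20 and 12 with control siRNA. The log2 fold changes were -0.22 for SNAI1 (95% interval -1.03 to 0.60, edgeR adjusted p = 0.661) and 0.07 for SNAI2 (95% interval -0.77 to 0.91, edgeR adjusted p = 0.897), and both intervals span 0. Low counts in this table are mostly even, at 66.2% to 69.5% of counts of 1 to 20 per library (50.6% to 51.7% of counts over 200). Whether both mates of a pair were counted was not tested; if they were, fewer fragments lie behind these values. SNAI1 lies on chromosome 20 from 49982999 to 49988886 (plus strand) and SNAI2 on chromosome 8 from 48917690 to 48921740 (minus strand).

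Set in order by mean TPM, FN1 came first with 75.6 TPM after HNRNPD siRNA and 83.9 TPM in control libraries, then VIM with 35.1 and 52.4 TPM, CDH1 with 31.9 and 34.5 TPM, ZEB1 with 29.4 and 31.9 TPM, and EPCAM with 18.8 and 14.6 TPM. CDH2 followed with 11.3 and 13.5 TPM, ZEB2 with 3.69 and 1.65 TPM, SNAI1 with 0.658 and 0.754 TPM and SNAI2 with 0.428 and 0.399 TPM. The order was the same in both groups. CDH1 and ZEB1 overlapped in both groups. In the HNRNPD siRNA libraries only, VIM overlapped with CDH1 and with ZEB1, and SNAI1 overlapped with SNAI2. With the longest protein-coding transcript as the length, and these levels not scaled again to a common sum, VIM was at 84.7 with HNRNPD siRNA and 126 with control siRNA. CDH1 and ZEB1 changed places, at 40.3 and 40.6 with HNRNPD siRNA and 43.5 and 44.1 with control siRNA. These are mRNA levels of bulk cultures, in which fewer cells of a kind and less RNA per cell cannot be told apart.

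By the pattern over the 6 libraries (Pearson's r of log2 CPM with 0.5 added, over the 9630 protein-coding genes that average 5 CPM or more), the genes most like VIM were SPDL1 (r = 0.9995) and VTI1B (0.9992). NUCKS1 (0.9986) and ZYG11B (0.9970) were nearest to FN1, NDFIP1 (0.9956) and ANP32A (0.9924) to CDH2, and METTL15 (0.9930) and FKBP9 (0.9882) to CDH1. With 6 libraries in 2 groups such values are near 1 for many genes that differ between the groups, and they are a description only.

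**Figure D5:**
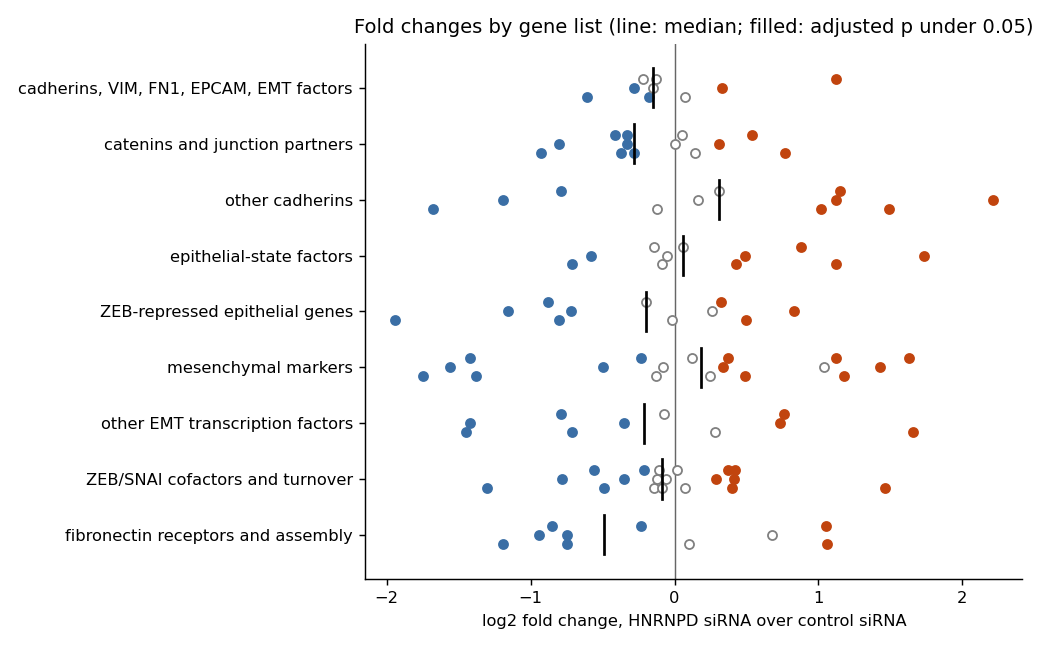
Log2 fold change, HNRNPD siRNA over control siRNA (horizontal axis), of every tested gene in the 9 described genes (top row) and in 8 lists of genes tied to them; orange and blue points passed an adjusted p of 0.05 as higher and lower, open points did not, and the black line is the median. All 8 lists hold genes that rose and genes that fell, and the lowest median, -0.49, is that of fibronectin receptors and assembly.

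The catenins and their junction partners, which carry the cadherin tail to actin, had 13 tested members of 14. Of these, 7 were lower and 3 higher, with a median log2 fold change of -0.28. Over all tested genes the median was 0.01, 27.8% fell and 28.4% rose, and the counts of this and the following lists stand beside those shares with no test of a list. Vinculin (VCL), which joins catenin to actin, had 169 ± 2.13 CPM with HNRNPD siRNA and 294 ± 7.52 CPM with control siRNA (SD, n = 3 each; log2 fold change -0.80, edgeR adjusted p = 9.06e-10). Alpha-catenin (CTNNA1) had 149 ± 4.46 and 192 ± 3.49 CPM (SD, n = 3 each), a log2 fold change of -0.37. Of the catenins that bind cadherins directly, beta-catenin (CTNNB1), p120 (CTNND1) and plakoglobin (JUP) had log2 fold changes of -0.33, -0.33 and -0.41 (edgeR adjusted p = 0.0001, 5.96e-05 and 8.07e-05). The nectin NECTIN2, an immunoglobulin-like adhesion molecule, was 1.46-fold higher.

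Other cadherins were of low level, and 11 of 22 could be tested. Of these, 5 were higher and 3 lower, with a median of 0.31, and 3 were higher where 1 CPM was required in 3 libraries. CDH11, known from bone and mesenchyme, had 4.7 and 2.17 CPM on average with HNRNPD siRNA and with control siRNA (log2 fold change 1.12). CDH4, or R-cadherin, had 2.45 and 1.2 CPM (1.02). CDH24 had 3.32 and 7.59 CPM (-1.19). CDH26 had the largest rise of the list, at 0.665 and 0.142 CPM (2.21, SE 0.50). Its counts were 21, 28 and 30 with HNRNPD siRNA and 2, 4 and 12 with control siRNA, and without control replicate 3 the log2 fold change was 3.18. Their summed level was 20.6 to 23.9 CPM with HNRNPD siRNA and 19 to 22.1 CPM with control siRNA.

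Factors that maintain the epithelial state went both ways. Of 11 tested of 14, 5 were higher and 2 lower, with a median of 0.06. KLF4, a zinc finger factor that activates epithelial genes, had 7.55 ± 1.38 and 3.49 ± 0.192 CPM (SD, n = 3 each; log2 fold change 1.12, edgeR adjusted p = 2.32e-06) in the HNRNPD siRNA and control groups, and KLF5 was 1.40-fold higher. ESRP2, an epithelial splicing regulator, had 1.47 and 0.441 CPM (log2 fold change 1.73). ELF3, an ETS factor of epithelia, had 27.1 ± 0.267 and 44.3 ± 0.287 CPM (SD, n = 3 each), a log2 fold change of -0.71.

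Epithelial genes that ZEB factors are known to repress were tested in 11 of 15 cases, and the median was -0.20. The test called 5 lower and 3 higher. SPINT2, an inhibitor of surface serine proteases, had 69.9 ± 2.63 and 115 ± 5.93 CPM (SD, n = 3 each) with HNRNPD siRNA and with control siRNA, a log2 fold change of -0.72. The polarity gene LLGL2 fell 2.23-fold, and SHROOM3, which organises apical actin, fell 1.74-fold. CDS1, of phospholipid synthesis, fell 3.83-fold at 0.336 and 1.3 CPM. The polarity gene CRB3 was higher at 1.18 and 0.66 CPM (log2 fold change 0.83). The number called higher was 1 by DESeq2, without HNRNPD siRNA replicate 2 and without control replicate 2, and in all of these CRB3 lost its call (adjusted p = 0.0859, 0.156 and 0.068), as it did without control replicate 1 (0.0677).

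Mesenchymal markers other than VIM and FN1 also split, with 7 higher and 6 lower of 18 tested of 20 and a median of 0.19. Fibrillin 1 (FBN1) had 22.9 ± 0.952 and 7.41 ± 0.341 CPM (SD, n = 3 each; log2 fold change 1.63, edgeR adjusted p = 2.25e-11) with HNRNPD siRNA and with control siRNA. The matricellular gene CYR61 (CCN1) rose 2.17-fold, and the smooth muscle genes ACTA2 and TAGLN rose 2.69-fold and 2.26-fold. ACTA2 shares 30.1% and TAGLN 11.4% of its exonic bases with genes on the opposite strand, and the strand setting is unknown. S100A4, a calcium-binding protein linked to motility, had 6.91 ± 0.669 and 18 ± 0.936 CPM (SD, n = 3 each), a log2 fold change of -1.38, and SPARC, a collagen-binding matrix protein, had 1.34 and 3.95 CPM (-1.56). Markers of fibroblasts were checked beside them: 3 of 8 could be tested, COL1A1 was higher (log2 fold change 0.37), and the summed level was 6.85 to 8.77 CPM with HNRNPD siRNA and 5.39 to 6.48 CPM with control siRNA. The call of COL1A1 was lost without HNRNPD siRNA replicate 1 (adjusted p = 0.0655), without control replicate 3 (0.113) and by DESeq2 (0.0661). Decorin (DCN) had 2 counts in one HNRNPD siRNA library and 0 in the other 5, and the leukocyte gene PTPRC had 0 counts in all HNRNPD siRNA libraries and 0, 2 and 2 in the control libraries. The part of such cells in the result was not tested.

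Markers of the line itself moved with the groups. Of the 12 lung epithelial and A549 markers, 9 were tested, 8 were lower and 1, NAPSA, was higher, and the summed level was 7426 to 8563 CPM with HNRNPD siRNA and 11918 to 12853 CPM with control siRNA. NAPSA, at 1.27 and 0.753 CPM, lost its call by DESeq2 (adjusted p = 0.0927) and without HNRNPD siRNA replicate 2 (0.0641), control replicate 1 (0.0804) or control replicate 3 (0.0687). KRT18, KRT8, KRT7 and KRT19 had log2 fold changes of -0.76, -0.70, -0.63 and -0.98. Endothelial markers gave 1 tested gene of 5, not called, and leukocyte markers 2 of 6, both lower (CD14 and ITGAM), at summed levels of at most 0.597 and 7.72 CPM in any library.

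Other transcription factors of EMT were lower in 5 and higher in 3 of 10 tested of 14, with a median of -0.21. HMGA2, a chromatin protein that raises SNAI1 and TWIST1, had 14.1 ± 1.46 and 38.6 ± 2.23 CPM (SD, n = 3 each; log2 fold change -1.45, edgeR adjusted p = 6.02e-11) with HNRNPD siRNA and with control siRNA. TCF3, the E2A factor that represses CDH1, rose 1.66-fold. TWIST1 had 1.68 ± 0.834 and 1.74 ± 0.321 CPM (SD, n = 3 each) and was not called (log2 fold change -0.07). The number called lower was 3 without HNRNPD siRNA replicate 2 or control replicate 2.

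Cofactors and turnover enzymes of the ZEB and SNAI proteins had 6 higher and 6 lower of 19 tested of 20 and a median of -0.09. AJUBA, a LIM protein that bridges SNAI1 to its repressor complex, had 17.9 ± 2.27 and 44.3 ± 2.31 CPM (SD, n = 3 each; log2 fold change -1.30, edgeR adjusted p = 4.09e-10) with HNRNPD siRNA and with control siRNA. KDM1A, the histone demethylase recruited by SNAI1, fell 1.72-fold, and CTBP2, a corepressor bound by ZEB proteins, fell 1.41-fold. CTBP2 shares 34.7% of its exonic bases with genes on the opposite strand, and the strand setting is unknown. USP51, which removes ubiquitin from ZEB1, rose 2.76-fold at 3.43 and 1.24 CPM.

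Genes that bind or assemble fibronectin were lower in 6 and higher in 2 of 10 tested of 11, with a median of -0.49. LOXL2, a collagen-oxidising enzyme that also acts on SNAI1, had 52.3 ± 7.49 and 119.5 ± 5 CPM (SD, n = 3 each; log2 fold change -1.19, edgeR adjusted p = 1.27e-08) with HNRNPD siRNA and with control siRNA. The integrin subunit ITGAV and the matrix protein FBLN1 both fell 1.68-fold. TGM2, a transglutaminase that cross-links fibronectin, and SDC4, a heparan sulfate co-receptor, rose 2.07-fold and 2.09-fold. Of the classical fibronectin receptor, ITGB1 had 2781 ± 199 and 2598 ± 63.4 CPM (SD, n = 3 each) and was not called (log2 fold change 0.10), but passed the test without HNRNPD siRNA replicate 3 (0.15, edgeR adjusted p = 0.0153). ITGA5 had a log2 fold change of -0.23 (edgeR adjusted p = 0.0457), and 8 of 15 alternatives ended that call, 5 of them by leaving out 1 library other than HNRNPD siRNA replicate 3 (adjusted p = 0.067 to 0.179).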

How the data were processed

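RNA-seq was analysed from 6 A549 libraries, per the labels made with the TruSeq RNA kit from total RNA. The values are the deposited whole-number counts per gene, with coordinates and gene length in bases; no source used here gives the counting program, annotation or strand setting of the authors. The submitters' processing notes name Bowtie 0.12.2, GRCh38 and mm8, with no role. The spans of 7 of the 9 genes equal those of GENCODE 29 on GRCh38. The counts were fitted in edgeR 4.0.16 (R 4.3.3) by the quasi-likelihood test with robust estimation, TMM scaling, filterByExpr and group as the only term, with Benjamini-Hochberg adjustment over 20465 genes. The fit was also run on simulated data with far fewer changed genes than were called here, so that run does not cover this setting. A standard error is the size of the log2 fold change over the root of its F value. TPM values use the table's length. DESeq2 1.42.0, limma 3.58.1 and other settings were alternatives. The genes, lists and rules were chosen with earlier results of these data known. By rule the text names, of each list, the 3 genes with the smallest p and every called gene of a list with 4 or fewer, and for 4 of the genes the 2 others closest in Pearson's r. A gene that the rule names is not reported here. CTNNB1, CTNND1, JUP, CDH26, ESRP2, CDS1, CRB3, SPARC, ACTA2, TAGLN, TWIST1, USP51, TGM2, SDC4, ITGA5 and ITGB1 were named after their values were seen. Chi-square per degree of freedom between replicates was 6.63 to 27.67, so none is a repeated library.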

Additional observations from a re-analysis of the deposited data

How the results depend on the processing

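Over 15 alternatives, 125 of 132 values of the 9 genes kept their direction and their side of an adjusted p of 0.05. ZEB2 (0.87 to 1.25), EPCAM (0.28 to 0.35), VIM (-0.65 to -0.57) and CDH2 (-0.36 to -0.21) stayed called in all 15, on the log2 scale. Leaving out 1 library at a time gave FN1 -0.22 to -0.16, CDH1 -0.23 to -0.08 and ZEB1 -0.25 to -0.11, and ZEB1 was -0.17 with no filter on low counts. The same gave SNAI1 -0.57 to 0.10, SNAI2 -0.14 to 0.25 and TWIST1 -0.30 to 0.31, none of them called; the cause of these sign changes was not tested. SNAI1 and SNAI2 had no value where the filter removed them. Of 982 further values for 66 other named genes, 20 lost and 2 gained a call. The genes called numbered 5043 to 5965 higher and 5049 to 5926 lower. With the replicate block, 5792 genes were higher and 5737 lower, and VIM (-0.61) and ZEB2 (1.09) kept their calls, as did every other one of the 9. Same-numbered libraries had correlations of deviations of 0.09, 0.04 and 0.03, and differently numbered ones -0.13 to 0.07. These values cannot show whether the samples were handled in pairs. SNAI1 and SNAI2 rest on 10 to 26 counts a library.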
